A study of Mus musculus with 14 samples.

Results

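Gene expression in the suprachiasmatic nucleus (SCN) was compared between mice on scheduled voluntary exercise (SVE) and mice without the schedule (nSVE), and the change common to wild-type and Vipr2-/- mice is described. It was measured as the mean of the SVE difference in the 2 genotypes on log2 values, both weighted equally. Of 55401 genes in the table, 18175 had a normalized read count of at least 10 in at least 3 of the 14 libraries and were tested. Of these, 9515 (52.4%) had a difference of the same sign in both genotypes, 5360 higher and 4155 lower with SVE. In the averaged comparison 264 genes (1.45%) were called, that is, passed limma's test at an adjusted p under 0.05, 181 of them higher (0.996%) and 83 lower (0.457%). Of the 264, 258 (1.42% of the genes tested) had the same sign in both genotypes, 176 higher and 82 lower. Choice by the mean of the 2 genotypes favours like signs, so this count is not separate support.

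All mice were C57BL/6 or on that background and older than 8 weeks. They saw a light-dark cycle for 14 days before constant darkness began. The nSVE mice (4 wild-type, Vipr2+/+, and 3 Vipr2-/- libraries) kept their own rhythm in darkness and were killed at circadian time 14. The SVE mice (4 wild-type and 3 Vipr2-/- libraries) did so for 14 days, and then their wheel was open to them on a schedule of 6 h in 24 h. They were killed once entrained, at zeitgeber time 14, which was 2 h into wheel access. Most of the study's experiments used males. For the wild-type SVE group the series text also gives circadian time 24, so in wild type exercise and circadian time cannot be told apart. Vipr2-/- mice lack VPAC2 in every tissue, and they entrained to the schedule within 6 to 9 days against 35 to 40 days in wild type. Time on the schedule therefore differed between the genotypes. Mice that did not entrain and arrhythmic Vipr2-/- nSVE mice had been left out by the authors. Nothing in the labels ties each library to an animal of its own, so the p-values rest on the spread between libraries, which may be technical.

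The SCN is the brain's master circadian clock. Its neurons keep time through a transcriptional loop and stay in step largely through vasoactive intestinal peptide (VIP), which acts on the receptor VPAC2, the product of Vipr2. Daily wheel running at a fixed hour can act as a time cue for this clock. Total RNA also holds ribosomal RNA (rRNA) and other structural RNAs such as 7SK, a small nuclear RNA that restrains transcription elongation. Ribosomal RNA is far more abundant in cells than messenger RNA, and the part of it that reaches a library depends on how the library was made.

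SVE libraries had a lower mean rRNA share in both genotypes, by a difference that did not pass 0.05 once adjusted over the library measures. Values per library are given in the order of the library numbers throughout, and gene values are normalized read counts. The rRNA share of reads was 21.25%, 21.82%, 12.24% and 4.797% in wild-type nSVE libraries 1 to 4 and 1.33%, 12.54%, 5.22% and 1.634% in wild-type SVE libraries 1 to 4. It was 11.42%, 19.35% and 3.857% in Vipr2-/- nSVE libraries 1 to 3 and 3.718%, 2.684% and 3.272% in Vipr2-/- SVE. The wild-type groups overlapped through SVE library 2 and nSVE library 4, and the Vipr2-/- groups did not overlap. The averaged log2 difference was -1.73 (-1.90 in wild type and -1.57 in Vipr2-/-; exact two-sided permutation test within genotype, p = 0.0143, adjusted p = 0.0571 over 4 library measures, smallest p possible 0.00143). Of the other measures, the share of tested genes at 0 differed by -4.01 points (exact permutation p = 0.109), the share of reads from the mitochondrial genome by 0.0223 points (p = 0.906) and log2 read number by 0.13 (p = 0.567). Libraries held 17709080 to 48794679 reads, and the labels name no batch. Vipr2-/- nSVE library 3 and Vipr2-/- SVE library 3 stood apart in the share of tested genes at 0, with 20.68% and 16.32% against 1.216% to 11.76% in the other 12. Nearly all rRNA reads came from 1 annotated gene, CT010467.1 (chromosome 17, 39846353 to 39848201 in GRCm38). SCN identity was present in each library: Vip lay between 2428 and 9848 and Avp between 3203 and 15710 normalized counts. Vipr2 itself stood at 6247, 6796, 7042 and 6538 in the wild-type nSVE libraries and 8736, 6792, 10030 and 7210 in wild-type SVE. It stood at 173, 144 and 218 in Vipr2-/- nSVE and 90.9, 244 and 193 in Vipr2-/- SVE. All Vipr2-/- libraries thus lay far below the wild-type ones. Vipr2 was not called with SVE (0.086, adjusted p = 0.864).

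**Figure D1:**
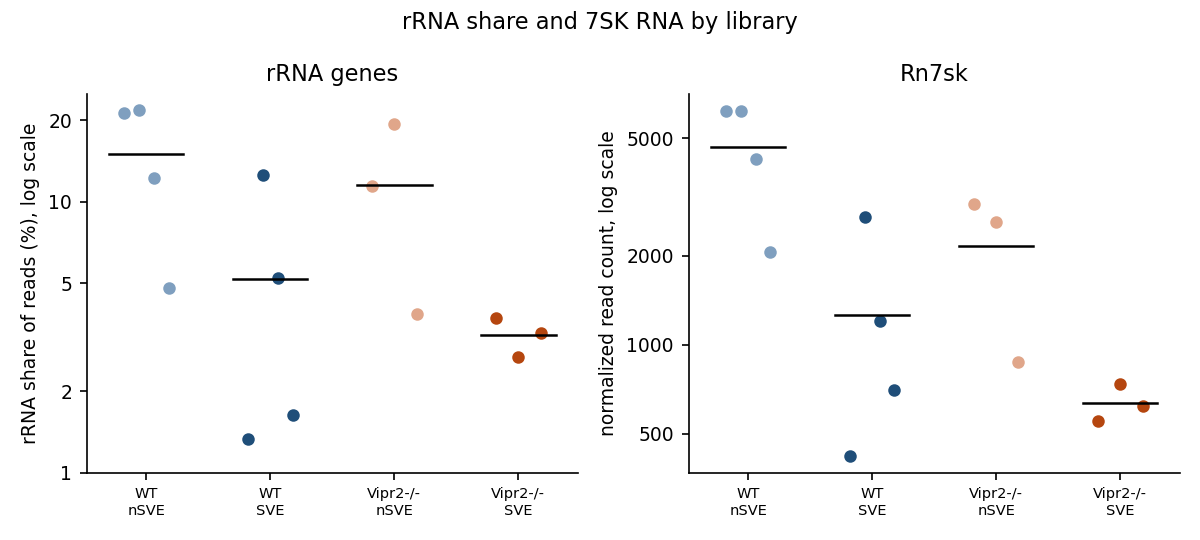
Share of reads in rRNA genes (left, percent, log scale) and normalized read count of the 7SK RNA gene Rn7sk (right, log scale) in each of the 14 libraries; points are libraries in numerical order and bars are group means. Wild-type SVE library 2, at 12.54%, is the SVE library with the most rRNA, and the highest Rn7sk count of each wild-type group is in the library with the most rRNA. In neither Vipr2-/- group is this so.

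The genotypes did not contribute equally to what passed the threshold singly. With wild type alone 233 genes were called (1.28%), 186 higher and 47 lower, and with Vipr2-/- alone 21 (0.116%), 18 higher and 3 lower. Of the 264 genes of the averaged comparison, 122 were also called in wild type, 17 in Vipr2-/- and 2 in both, while 127 were called in neither and passed only with both genotypes pooled. An unadjusted p under 0.05 in each genotype and the same sign were found for 176 of the 264, against 332 (1.83%) of all genes tested. A further 60 genes had such a p in each genotype with opposite signs. In 131 of the 264 the SVE and nSVE libraries did not overlap in either genotype and moved the same way, against 240 (1.32%) of all genes. Because the 264 were chosen by the mean of the 2 genotypes, agreement between them is favoured and these counts are not separate support. Over all 18175 genes the wild-type and Vipr2-/- changes had a Spearman correlation of 0.0817, and of 0.172 over the 5290 genes with a mean of at least 1000. This is a description across genes, which are not independent. The test of a difference between the genotypes called 4 genes (0.022%), Kdr, Gm1848, Tmem51 and Nr1d1.

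**Figure D2:**
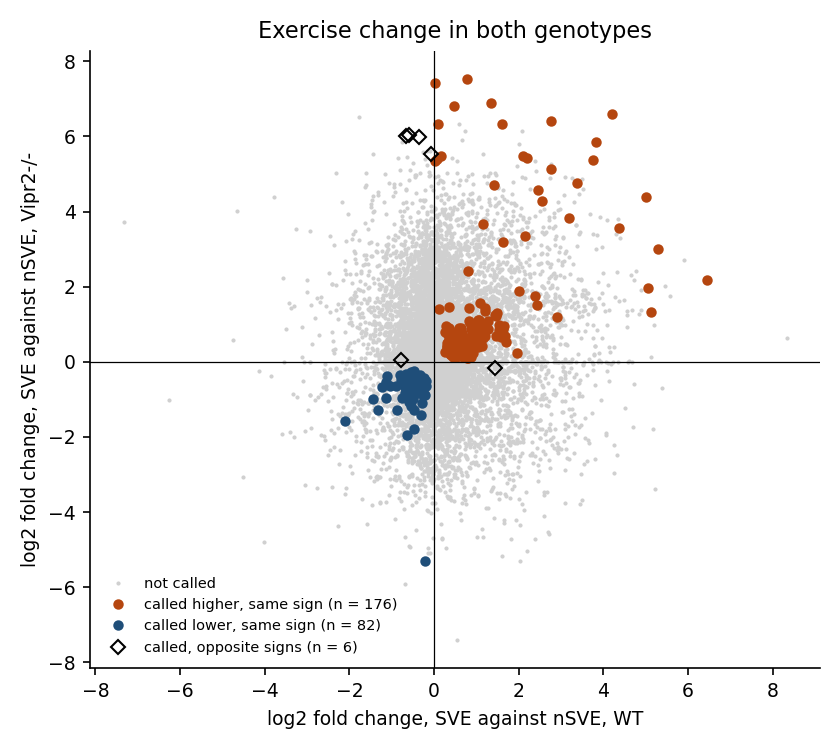
Log2 fold change with SVE in wild type (horizontal) and in Vipr2-/- (vertical) for each gene tested; coloured points are the genes called in the averaged comparison. The 176 higher and 82 lower genes of like sign lie in 2 quadrants, and the 6 diamonds are called genes whose signs differ.

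Comparison of libraries at equal rRNA share kept the direction of each called gene and removed the calls. With each library's log2 rRNA share as a covariate in the limma fit, 0 genes passed (0.0%, lowest adjusted p = 0.0777), while 2057 had an unadjusted p under 0.05. The median log2 fold change moved from 0.68 to 0.61 for the 181 higher genes and from -0.57 to -0.52 for the 83 lower genes. The unadjusted p stayed under 0.05 for 178 of the 181 and for all 83. These genes were chosen by the averaged test of the same libraries. That choice favours a kept direction and a low p, so neither is separate support for the calls. The median over all genes was 0.054 without the covariate and 0.083 with it. With the rRNA share entered in percent in place of its logarithm, 6 genes passed. Within groups, the level of 5 genes rose with rRNA share (0.0275%, adjusted p under 0.05): CT010467.1, Lars2, Gm23935, Gm24447 and Rn7sk. CT010467.1 gave nearly all rRNA reads, so its place here follows from the covariate itself and is not a result. Among these 5, Rn7sk was the single gene called with SVE.

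**Figure D3:**
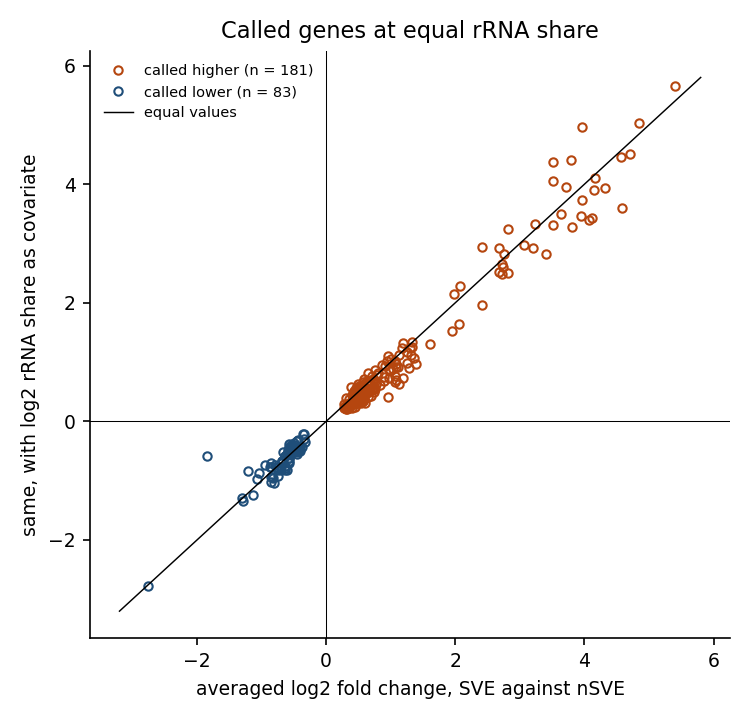
Averaged log2 fold change of the 264 called genes without (horizontal) and with (vertical) log2 rRNA share as covariate; the line marks equal values. Most points lie near the line; Rn7sk moves from -1.85 to -0.59.

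Among the gene lists, that of ribosomal proteins held the most genes called lower with SVE. These proteins build the small (Rps) and large (Rpl) subunit of the cytosolic ribosome, and their genes are transcribed in step with cell growth. Of 53 measured cytosolic ribosomal protein genes, 11 were called lower and none higher (0.457% of all genes were lower), 52 had an averaged change below 0 and 48 were lower in both genotypes. Their median log2 fold change was -0.35 (-0.37 in wild type and -0.39 in Vipr2-/-), against 0.054 over all genes. The changes ran from -1.07 to 0.014. The genes called lower included Rpl3, Rpl11, Rps4x, Rps24, Rps27a, Rps14, Rps3, Rpl19, Rps18 and Rpl7.

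The ribosomal protein promoters shown next carry the motif CTTCCG, a core of sites for ETS-family factors, and are printed because both genes fell with SVE and hold it close to their start. Each line gives the 150 bases upstream of the transcription start, 5′ to 3′ on the gene's strand, in GRCm38.p6 from RefSeq, with each CTTCCG or its reverse complement in capitals. Rpl19 lies on the plus strand with the window at chr11:98026560-98026709, and Rps18 on the minus strand with the window at chr17:33955666-33955815.
Rpl19: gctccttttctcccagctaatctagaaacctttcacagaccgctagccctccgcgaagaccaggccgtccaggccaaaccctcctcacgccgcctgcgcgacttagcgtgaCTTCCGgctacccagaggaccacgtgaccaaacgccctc
Rps18: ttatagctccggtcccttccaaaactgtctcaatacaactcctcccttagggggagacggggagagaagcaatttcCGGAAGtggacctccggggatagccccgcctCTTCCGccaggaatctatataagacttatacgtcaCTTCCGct
The match in Rpl19 starts at position -39 and those in Rps18 at -74, -43 and -8. On either strand of the RefSeq windows of 300 bases around the start, CTTCCG was found in 25 of 39 ribosomal protein promoters (64.1%), in 4 of the 6 called ones with a window (66.7%) and in 31.3% of 12155 promoters of tested genes. It was found in 40.6% of the 64 windows of genes called lower and in 25.5% of the 141 of genes called higher. TGACG, the core of the cAMP response element, was in 51.6% of lower, 29.1% of higher and 33.5% of all windows. CACGTG, the E-box bound by CLOCK and BMAL1, was in 7.81%, 5.67% and 11.2%. The other letters searched gave 1.56%, 0.0% and 0.74% for TTATGTAA, 3.12%, 3.55% and 3.38% for TGACGTCA (which contains TGACG), and 1.56%, 1.42% and 3.08% for AAGATGGCG. They gave 15.6%, 20.6% and 22.2% for CTTTTC, 48.4%, 41.1% and 48.8% for TTTTC (part of CTTTTC), and 45.3%, 61.7% and 56.9% for CCTTT. A match is a run of letters and not a shown binding site.

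Rpl3 (ENSMUSG00000060036.14; chromosome 15, 80077791 to 80091868, minus strand), part of the large subunit near its catalytic centre, had normalized counts of 17420, 15890, 15080 and 17040 in the wild-type nSVE libraries and 9060, 12690, 9205 and 8216 in wild-type SVE. It had 13380, 13840 and 12680 in Vipr2-/- nSVE and 9392, 9693 and 7557 in Vipr2-/- SVE. Each SVE library lay below each nSVE library of its genotype, and the log2 fold change was -0.67 ± 0.0939 (SE, adjusted p = 0.00253), with -0.76 in wild type and -0.59 in Vipr2-/-. Rps24, of the small subunit, had 6829, 9346, 8449 and 8936 in the wild-type nSVE libraries and 5393, 7541, 4793 and 5458 in wild-type SVE. It had 8564, 7720 and 8596 in Vipr2-/- nSVE and 5757, 5518 and 4005 in Vipr2-/- SVE. The wild-type groups overlapped through SVE library 2, which is also the SVE library with the most rRNA, and the change was -0.63 ± 0.112 (SE, adjusted p = 0.0130). Rpl11, a large-subunit protein that also binds the p53 regulator Mdm2, fell (-0.69, adjusted p = 0.00325), and so did Rps27a, whose product is made as a fusion with ubiquitin (-1.07, adjusted p = 0.0244). Rps14 (-0.85, adjusted p = 0.0311), Rps4x (-0.43, adjusted p = 0.0130) and Rpl19 (-0.57, adjusted p = 0.0324) fell too, and so did Rpl39 (-0.77, adjusted p = 0.0123) and Rpl26 (-0.63, adjusted p = 0.0425), which were not on the list. In wild-type SVE library 2 Rps14 stood at 3445 and Rpl19 at 10920, far above the other 3 SVE wild-type libraries (1511 to 1784 and 5946 to 6409). The summed level of the 53 genes was 270663, 291865, 300843 and 291835 in wild-type nSVE and 207519, 277846, 209132 and 212506 in wild-type SVE. It was 238312, 240216 and 323465 in Vipr2-/- nSVE and 210906, 209712 and 187947 in Vipr2-/- SVE. In Vipr2-/- the groups did not overlap, and in wild type they overlapped through SVE library 2.

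At equal rRNA share the list's median was -0.41, with 49 of 53 below 0 and 28 at an unadjusted p under 0.05, and its median slope on rRNA share within groups was -0.0039. With only the 8 libraries that had under 10% rRNA, 1055 genes were called over the table (5.8%), the median of the ribosomal protein list was -0.57 and 15 of its genes were lower, against 0.732% of all genes. That comparison leaves 1 nSVE library per genotype, whose spread is assumed to equal that of the others. The Vipr2-/- one is library 3 (3.857% rRNA), which had the largest share of genes at 0 (20.68%) and the highest ribosomal protein sum of all 14 libraries, so these values rest on it. Without library 3 of both Vipr2-/- groups, the median was -0.27 and 9 were lower. Ribosomal protein genes are short and have many processed pseudogenes with which reads can be shared. Of the 83 genes called lower, 9 were annotated as processed pseudogenes, so the split of reads between a gene and its copies is uncertain. The median transcript length of the list was 1109 bases, and after a correction of each library for GC content and length its median was -0.53, with 53 of 53 below 0, while the median of all genes moved to -0.13. Omitting a single library ended the call of Rpl19 and of Rpl26 in 10 of 14 cases each (highest adjusted p = 0.0971), Rps14 in 7 and Rps27a in 4, whereas Rpl3, Rpl11, Rps4x, Rps24 and Rpl39 passed in all 14. The GC and length correction ended the calls of Rps4x, Rpl26 and Rpl39 (adjusted p from 0.0595 to 0.101).

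Genes for energy metabolism and protein turnover went the same way in part. Among 44 nuclear-encoded respiratory chain genes, Ndufa4 and Ndufa2 were called lower (0.457% of all genes were lower, the share to set beside each count of lower genes that follows), 39 were below 0 and 33 were lower in both genotypes (median -0.20). Ndufa4, of cytochrome c oxidase, had 3889, 4172, 4099 and 3615 in the wild-type nSVE libraries and 2372, 2713, 2251 and 2065 in wild-type SVE. It had 5123, 5444 and 4632 in Vipr2-/- nSVE and 3261, 2392 and 2298 in Vipr2-/- SVE. No SVE library reached any nSVE library of its genotype, and the change was -0.85 ± 0.0927 (SE, adjusted p = 0.000803), called in each genotype singly as well (-0.75 in wild type and -0.95 in Vipr2-/-). At equal rRNA share it was -0.70 (unadjusted p = 1.94e-05). Ndufa2, a complex I subunit (-0.86, adjusted p = 0.0454), Cox7b, of complex IV (-0.59, adjusted p = 0.0160), and Atp5md, of ATP synthase (-0.95, adjusted p = 0.0358), were lower as well, the last pair from outside the list. The 15 genes of the mitochondrial genome itself, its rRNA genes mt-Rnr1 and mt-Rnr2 included, had no call. Their median was -0.0038, with 2 at an unadjusted p under 0.05. With rRNA share as covariate their median was 0.35, with 7 at such a p. Of 28 proteasome subunit genes Psma2 (-0.64, adjusted p = 0.0359) and Psmb1 (-0.45, adjusted p = 0.0451) were called lower, 25 were below 0 and the median was -0.31. Of 26 translation factor genes, Eif4a1, the helicase that unwinds mRNA leaders (-0.57, adjusted p = 0.0130), and Eif4e, the cap-binding protein (-0.55, adjusted p = 0.0149), were lower, and the list as a whole had a median of -0.082. Eif4e counted 1991, 2269, 2013 and 2051 in the wild-type nSVE libraries and 1378, 1317, 1798 and 1570 in wild-type SVE. The Vipr2-/- libraries gave 2384, 3073 and 2174 in Vipr2-/- nSVE and 1594, 1525 and 1750 in Vipr2-/- SVE. Neither genotype's groups overlapped. No antioxidant enzyme gene was called by limma or edgeR, although 19 of 21 were below 0, 9 of them with an unadjusted p under 0.05, among them Prdx2 (-0.28, adjusted p = 0.0693) and Sod1 (-0.44, adjusted p = 0.0873). DESeq2 called 4 of the antioxidant enzymes lower, Prdx2 and Sod1 included (adjusted p = 0.00498 and 0.0107). Over all genes DESeq2 called 345 of 17353 lower. The calls of Psma2, Psmb1 and Ndufa2 ended in 10, 11 and 10 of 14 single-library omissions (highest adjusted p = 0.107), and that of Atp5md in 9, whereas Ndufa4, Cox7b, Eif4a1 and Eif4e passed in all 14. The GC and length correction ended the calls of Cox7b (adjusted p = 0.0897), Eif4a1 (0.0674), Ndufa2 (0.0642), Psma2 (0.0832) and Psmb1 (0.0833).

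Long noncoding RNAs of neurons were among the rises that both genotypes showed. Of 13 measured nuclear and neuronal long noncoding RNAs 4 were called higher and none lower (0.996% of all genes were higher), and 7 were higher in both genotypes. The median of the nuclear and neuronal long noncoding RNAs was 0.55 (0.27 in wild type and 0.79 in Vipr2-/-). It was 0.24 with edgeR, 0.23 with DESeq2, 0.27 with array weights and 0.22 without library 3 of both Vipr2-/- groups, where 4 were again called higher and 1 lower. It lay between 0.29 and 0.35 without wild-type nSVE library 2, Vipr2-/- nSVE library 2 or 3, or Vipr2-/- SVE library 1. Miat (ENSMUSG00000097767.8; chromosome 5, 112213228 to 112229395, minus strand), a nuclear RNA of neurons, had 1405, 1083, 2056 and 1839 in the wild-type nSVE libraries and 5315, 3693, 3833 and 5300 in wild-type SVE. It had 2439, 1794 and 1802 in Vipr2-/- nSVE and 3486, 3931 and 4404 in Vipr2-/- SVE. The groups were apart in both genotypes, and the rise was 1.25 ± 0.145 (SE, adjusted p = 0.000803) on the log2 scale, a 2.38-fold level. Meg3, an abundant RNA made from the maternal copy of an imprinted region on chromosome 12, had 39450, 29280, 53800 and 42780 in the wild-type nSVE libraries and 94170, 77220, 78420 and 111000 in wild-type SVE. Its Vipr2-/- counts were 41260, 29060 and 35190 in Vipr2-/- nSVE and 56160, 64120 and 60600 in Vipr2-/- SVE. Again the groups did not overlap, and the rise was 0.97 ± 0.131 (SE, adjusted p = 0.00217). Mirg, transcribed farther along the same imprinted region, rose by 0.99 ± 0.210 (SE, adjusted p = 0.0313), and Snhg11, a neuronal host gene of small nucleolar RNAs on chromosome 2, by 1.06 ± 0.176 (SE, adjusted p = 0.00861). At equal rRNA share the changes were 0.98 (unadjusted p = 3.85e-05) for Miat, 0.73 (unadjusted p = 0.000257) for Meg3, 0.66 (unadjusted p = 0.00283) for Snhg11 and 0.84 (unadjusted p = 0.00975) for Mirg. After the GC and length correction Miat, Meg3 and Snhg11 were still called, and Mirg had an adjusted p of 0.0564. Omitting a library ended the call of Mirg in 5 of 14 cases (highest adjusted p = 0.0767) and that of the other 3 in none.

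Genes of nuclear RNA processing were also among the rises. Of 30 splicing factor genes, Snrnp70, which encodes the 70K protein of the U1 particle, and Srrm2, a scaffold protein of nuclear speckles, were called higher (0.996% of all genes were higher), 25 were above 0 and 16 were higher in both genotypes. The GC and length correction ended both calls (adjusted p = 0.0936 and 0.107). Their median of 0.16 turned to -0.015 after the GC and length correction, under which all genes had a median of -0.13. Snrnp70 had 1663, 1618, 2675 and 2236 in the wild-type nSVE libraries and 3244, 3032, 2882 and 3445 in wild-type SVE. The Vipr2-/- counts were 1586, 1494 and 1484 in Vipr2-/- nSVE and 2798, 2931 and 2744 in Vipr2-/- SVE. All SVE libraries exceeded the nSVE libraries of their genotype, and Snrnp70 was with Ndufa4 the other gene called in each genotype singly (0.65 in wild type and 0.89 in Vipr2-/-; averaged 0.77 ± 0.107 (SE, adjusted p = 0.00253)). Srrm2 rose by 0.56 ± 0.104 (SE, adjusted p = 0.0190), a call that ended without wild-type SVE library 4 (adjusted p = 0.0529). Outside the list, Akap8l, a nuclear matrix protein, had 1643, 1516, 2664 and 2543 in the wild-type nSVE libraries and 6094, 4499, 4976 and 7630 in wild-type SVE. It had 1715, 1217 and 1893 in Vipr2-/- nSVE and 3194, 4704 and 4024 in Vipr2-/- SVE. The groups lay apart in both genotypes, with a change of 1.40 ± 0.163 (SE, adjusted p = 0.000803) that was 1.49 in wild type and 1.31 in Vipr2-/-. Leng8 rose by 1.35 ± 0.193 (SE, adjusted p = 0.00308). At equal rRNA share Akap8l changed by 0.97 (unadjusted p = 1.2e-05) and Leng8 by 1.06 (unadjusted p = 0.000527).

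**Figure D4:**
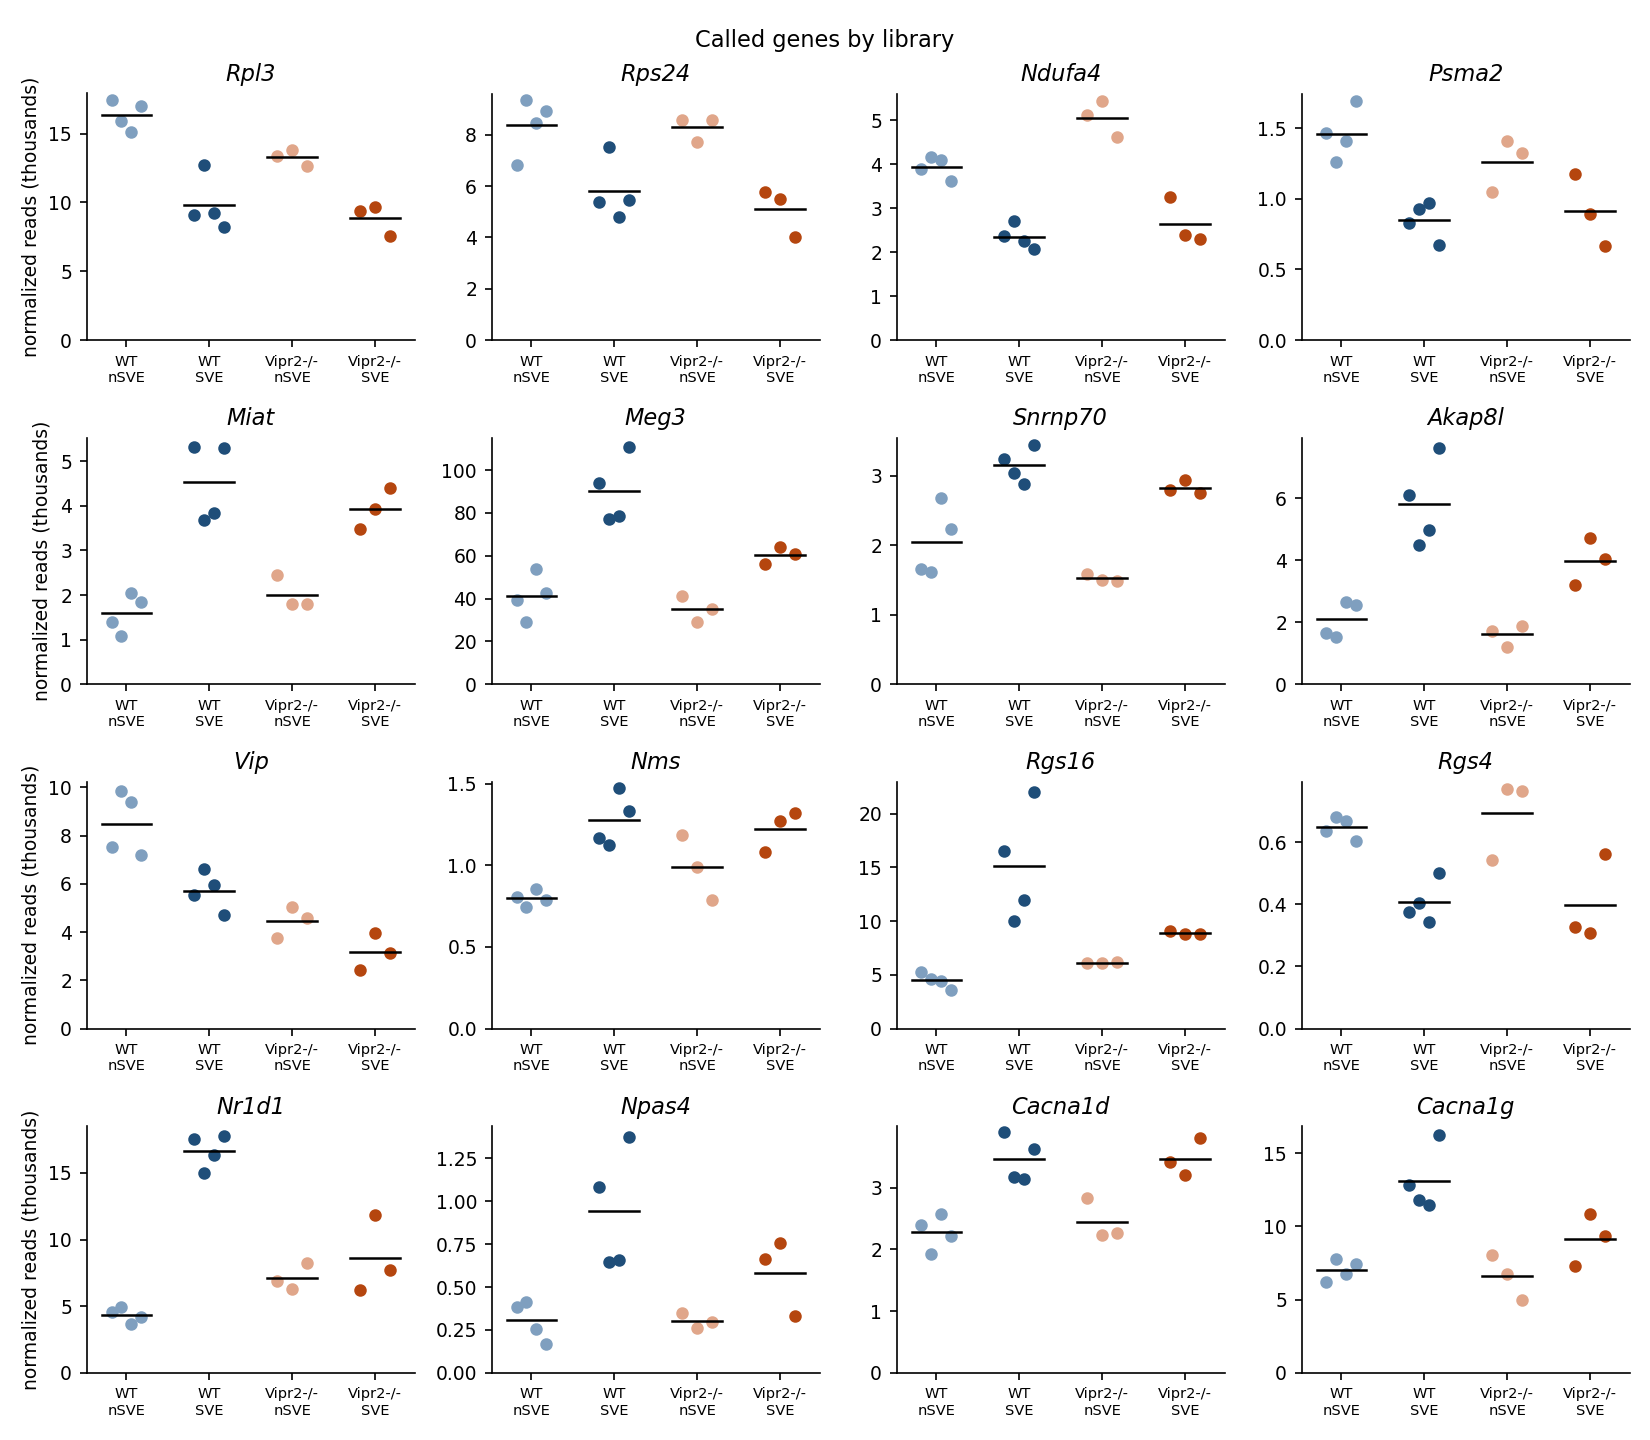
Normalized read counts, divided by 1000, of 16 called genes in each library; points are libraries in numerical order and bars are group means, with each vertical axis from 0. In the first row SVE libraries lie lower, in the second row higher, and Nr1d1 shows 15000 to 17790 in wild-type SVE against 6246 to 11810 in Vipr2-/- SVE.

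Among the peptides that SCN neurons use to signal, Vip fell and Nms and Prok2 rose. Of 19 measured SCN neuropeptide genes these 3 were called (1.45% of all genes were), and 9 had the same sign in both genotypes (52.4% of all genes did). In tissue RNA, fewer cells of a type and less RNA per cell cannot be told apart. Vip (ENSMUSG00000019772.5; chromosome 10, 5639218 to 5647617, plus strand), which encodes the ligand of VPAC2, had 7507, 9848, 9398 and 7196 in the wild-type nSVE libraries and 5554, 6594, 5934 and 4687 in wild-type SVE. It had 3772, 5027 and 4592 in Vipr2-/- nSVE and 2428, 3977 and 3133 in Vipr2-/- SVE. The wild-type groups did not overlap while Vipr2-/- SVE library 2 lay above Vipr2-/- nSVE library 1. The change was -0.54 ± 0.120 (SE, adjusted p = 0.0368), with -0.57 in wild type and -0.51 in Vipr2-/-. Nms, the gene of neuromedin S, a peptide made by a large subset of SCN neurons, had 807, 743, 853 and 785 in the wild-type nSVE libraries and 1168, 1124, 1473 and 1330 in wild-type SVE. It had 1187, 991 and 788 in Vipr2-/- nSVE and 1079, 1268 and 1317 in Vipr2-/- SVE. The groups were apart in wild type and overlapped in Vipr2-/-, and the rise was 0.49 ± 0.114 (SE, adjusted p = 0.0428). Prok2, an SCN output signal whose promoter is driven by clock proteins through E-boxes, had 108, 55.7, 74.0 and 44.1 in the wild-type nSVE libraries and 144, 154, 61.8 and 763 in wild-type SVE. It had 10.2, 0 and 0 in Vipr2-/- nSVE and 82.2, 26.4 and 85.8 in Vipr2-/- SVE. Wild-type SVE library 4, at 763, stood far above the other 13 libraries and the wild-type groups overlapped, while in Vipr2-/- all 3 SVE libraries were above the 0 to 10.2 of nSVE. The Prok2 change was 3.06 ± 0.720 (SE, adjusted p = 0.0460). Avp, the vasopressin gene, was not called (-0.28, adjusted p = 0.438). The calls of Vip, Nms and Prok2 ended in 9 of 14, 11 of 14 and 13 of 14 single-library omissions (highest adjusted p = 0.121). After the GC and length correction none of the 3 was called (adjusted p = 0.101, 0.257 and 0.0770). At equal rRNA share the changes were -0.40 (unadjusted p = 0.0214), 0.53 (unadjusted p = 0.00402) and 2.97 (unadjusted p = 0.00933) in this order.

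The Prok2 promoter is shown because the clock's E-box is the motif through which this gene is known to be driven. It covers the 150 bases upstream of the start on the minus strand (chr6:99726393-99726542, GRCm38.p6, RefSeq), with CACGTG in capitals, starting at position -135.
Prok2: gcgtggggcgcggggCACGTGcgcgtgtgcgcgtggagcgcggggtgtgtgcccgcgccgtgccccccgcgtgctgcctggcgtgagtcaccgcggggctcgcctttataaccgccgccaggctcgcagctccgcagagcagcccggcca

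Another peptide gene, Nppc, stood out among the rises although it was not on the list. It encodes C-type natriuretic peptide, a ligand of the guanylyl cyclase receptor Npr2. Nppc had 187, 100.4, 69.3 and 89.5 in the wild-type nSVE libraries and 555, 439.5, 469 and 788 in wild-type SVE. It had 159.6, 141 and 48.0 in Vipr2-/- nSVE and 323, 383 and 348 in Vipr2-/- SVE. All SVE libraries exceeded all nSVE libraries of both genotypes, and the rise was 2.07 ± 0.317 (SE, adjusted p = 0.00467), or 4.21-fold, with 2.39 in wild type and 1.76 in Vipr2-/-. It passed in all 14 omissions, and at equal rRNA share it was 2.29 (unadjusted p = 9.28e-05).

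Regulators of G protein signalling changed in opposite directions. These proteins shorten the signal of active G proteins, and Rgs16 is cycled by the clock in dorsal SCN neurons. Of 17 measured SCN receptor and G protein regulator genes, Rgs16 was called higher (0.996% of all genes were) and Rgs4 lower (0.457% of all genes were). Rgs16 (ENSMUSG00000026475.7; chromosome 1, 153740349 to 153745468, plus strand) had 5250, 4631, 4459 and 3585 in the wild-type nSVE libraries and 16500, 9970, 11910 and 22010 in wild-type SVE. Its Vipr2-/- counts were 6105, 6099 and 6166 in Vipr2-/- nSVE and 9031, 8770 and 8750 in Vipr2-/- SVE. In both genotypes the groups were apart, and the averaged rise was 1.11 ± 0.141 (SE, adjusted p = 0.00158). It was larger in wild type (1.70) than in Vipr2-/- (0.53) by a difference that did not pass over all genes (interaction adjusted p = 0.293). Rgs4 had 638, 681, 668 and 605 in the wild-type nSVE libraries and 375, 405, 343 and 502 in wild-type SVE. It had 544, 771 and 764 in Vipr2-/- nSVE and 327, 307 and 563 in Vipr2-/- SVE. Wild-type groups did not overlap, Vipr2-/- groups did through SVE library 3, and the change was -0.76 ± 0.170 (SE, adjusted p = 0.0373). The Rgs16 call passed in all 14 omissions and that of Rgs4 ended in 11 of 14 (highest adjusted p = 0.0888). After the GC and length correction neither passed (adjusted p = 0.0501 for Rgs16 and 0.0911 for Rgs4).

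Within the clock itself limma's single call in the averaged comparison was Nr1d1, and its change differed in size between the genotypes. Of 20 core clock genes 1 was called (1.45% of all genes were) and 7 had the same sign in both genotypes (52.4% of all genes did). Their median change was 0.015, against 0.054 over all genes. Nr1d1 (ENSMUSG00000020889.11; chromosome 11, 98767932 to 98775333, minus strand), the REV-ERB alpha repressor, had 4523, 4948, 3622 and 4206 in the wild-type nSVE libraries and 17560, 15000, 16320 and 17790 in wild-type SVE. It had 6874, 6306 and 8263 in Vipr2-/- nSVE and 6246, 11810 and 7725 in Vipr2-/- SVE. The wild-type groups were far apart and the Vipr2-/- groups overlapped. The averaged change was 1.09 ± 0.122 (SE, adjusted p = 0.000803), made up of 1.95 in wild type and 0.22 in Vipr2-/-, and the genotypes differed (interaction -1.73, adjusted p = 0.0128). Per2, a repressor of the loop, was 3692 to 4778 in wild-type nSVE and 980.2 to 2452 in wild-type SVE. In Vipr2-/- it was 1730 to 2802 and 1590 to 2317. Its averaged change did not pass with limma (-0.71, adjusted p = 0.0611), nor did that of Cry1 (-0.40, adjusted p = 0.102). Per2 was called lower with DESeq2 (-0.68, adjusted p = 0.00786), after the GC and length correction (-0.90, 0.0414), with a pseudocount of 10 (adjusted p = 0.0484), with reads outside rRNA genes as library size (adjusted p = 0.0427) and without wild-type SVE library 2 (adjusted p = 0.0233). DESeq2 also called Cry1 lower (adjusted p = 0.0407), and of the core clock genes limma called 2 higher in the 8 libraries under 10% rRNA. In wild type alone limma called Per2 (-1.38, adjusted p = 0.0135) and Cry1 (-0.90, adjusted p = 0.0136) lower. Their Vipr2-/- changes were -0.048 and 0.098. For Per1 (0.34, adjusted p = 0.468) and Arntl (0.012, adjusted p = 0.980), the Bmal1 gene, no averaged change was detectable at this depth and spread. Dbp did not pass either (0.23, adjusted p = 0.544), and its average joined unlike changes. These were 0.76 in wild type, where the groups did not overlap, and -0.30 in Vipr2-/- (adjusted p = 0.112 and 0.607). Their difference did not pass over all genes (interaction unadjusted p = 0.0059, adjusted p = 0.383). By the series text the wild-type groups also differ in circadian time, and the part of that difference in these values was not tested.

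Genes that respond to neuronal activity and genes of excitability rose in few members. Among 22 immediate-early genes, switched on within minutes of neuronal activity, Npas4 was called, 17 were above 0 and 11 were higher in both genotypes. Their median was 0.24, and 0.55 at equal rRNA share. Of all 18175 genes tested, 0.996% were called higher, 10247 were above 0 and 5360 were higher in both genotypes. Npas4 had 382, 413, 256 and 168 in the wild-type nSVE libraries and 1081, 645, 659 and 1377 in wild-type SVE. It had 347, 260.5 and 296 in Vipr2-/- nSVE and 662, 758 and 329 in Vipr2-/- SVE. Wild-type groups did not overlap and Vipr2-/- SVE library 3 lay within the nSVE range, with a rise of 1.25 ± 0.262 (SE, adjusted p = 0.0301). That call ended in 6 of 14 omissions (highest adjusted p = 0.0760) and with GC and length corrected (adjusted p = 0.0674). Fos did not pass (0.68, adjusted p = 0.530), and wild-type nSVE library 2 held 8106 against 562.2 to 1326 in the other 3. The summed level of the 22 immediate-early genes likewise reached 78842 in 1 wild-type nSVE library, against a group median of 18398 and 22662 to 43155 in wild-type SVE. Of 23 ion channel genes of SCN firing, the calcium channel genes Cacna1d and Cacna1g were called higher (0.996% of all genes were). Cacna1d, the L-type channel Cav1.3, had 2395, 1924, 2579 and 2210 in the wild-type nSVE libraries and 3896, 3178, 3146 and 3633 in wild-type SVE. It had 2828, 2240 and 2261 in Vipr2-/- nSVE and 3410, 3200 and 3802 in Vipr2-/- SVE. Its groups were apart in both genotypes, and the rise was 0.56 ± 0.0921 (SE, adjusted p = 0.00817). Cacna1g, the T-type channel Cav3.1, had 6198, 7755, 6754 and 7428 in the wild-type nSVE libraries and 12840, 11820, 11450 and 16280 in wild-type SVE. It had 8061, 6760 and 4972 in Vipr2-/- nSVE and 7278, 10880 and 9316 in Vipr2-/- SVE. The Vipr2-/- groups overlapped, and the rise was 0.68 ± 0.120 (SE, adjusted p = 0.0130). Both channel genes passed in all 14 omissions. After the GC and length correction neither passed (adjusted p = 0.0577 and 0.0643).

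Transcription factors that give SCN neurons their identity had no call with limma, whereas DESeq2 called 4 higher, namely Six3, Six6, Lhx1 and Hmx2 (adjusted p from 0.0113 to 0.0456). Over all genes DESeq2 called 919 of 17353, 574 of them higher. Six3 also passed without library 3 of both Vipr2-/- groups (adjusted p = 0.0378) and without Vipr2-/- SVE library 3 alone (adjusted p = 0.0473). Of the 14 genes 10 were above 0, 7 were higher in both genotypes and 6 had an unadjusted p under 0.05, all with an averaged change above 0. Over all 18175 genes tested the like counts were 10247, 5360 and 2734, of which last 1671 had a change above 0. Six3 (0.33, adjusted p = 0.0908), Lhx1 (0.35, adjusted p = 0.119) and Six6 (0.37, adjusted p = 0.120) stood close to the list's median of 0.34. Hmx2 (2.52, adjusted p = 0.0702) was at 0 in all 3 Vipr2-/- nSVE libraries and between 30.6 and 44.3 in Vipr2-/- SVE, while its wild-type change was -0.18.

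Further called genes were on none of the 38 lists. Cxcl12, a chemokine, had 1636, 1820, 1805 and 1758 in the wild-type nSVE libraries and 2404, 2610, 2740 and 2545 in wild-type SVE. It had 2039, 2433 and 1751 in Vipr2-/- nSVE and 2435, 2940 and 2657 in Vipr2-/- SVE. The groups did not overlap in either genotype, Vipr2-/- SVE library 1 exceeding nSVE library 2 by 2 counts, and the rise was 0.46 ± 0.0855 (SE, adjusted p = 0.0167). Magel2, an imprinted gene of the hypothalamus, rose by 0.89 ± 0.126 (SE, adjusted p = 0.00306). Sema3e, an axon and vessel guidance molecule, had 626, 497, 706 and 595 in the wild-type nSVE libraries and 276, 314, 253 and 251 in wild-type SVE. It had 236, 209.9 and 366 in Vipr2-/- nSVE and 168, 183 and 193 in Vipr2-/- SVE. All SVE libraries lay below the nSVE ones of their genotype, and the change was -0.84 ± 0.189 (SE, adjusted p = 0.0389). Klhdc8a (-0.83, adjusted p = 0.0311), Ctps, of CTP synthesis (-0.79, adjusted p = 0.0244), Bola2, of iron-sulfur handling (-0.85, adjusted p = 0.0368), and Acyp2, an acylphosphatase (-1.29, adjusted p = 0.0369), completed the larger falls. Tnni1, a troponin of slow muscle, had 168, 47.4, 39.9 and 81.9 in the wild-type nSVE libraries and 62.4, 70.0, 102 and 31.6 in wild-type SVE. It had 90.0, 49.0 and 114 in Vipr2-/- nSVE and 0, 7.65 and 0 in Vipr2-/- SVE. It fell on average (-2.76, adjusted p = 0.0475), with -0.22 in wild type and -5.29 in Vipr2-/-, although the difference between the genotypes did not pass (interaction adjusted p = 0.297). The calls of Sema3e, Bola2, Acyp2, Tnni1, Klhdc8a and Ctps ended in 9, 9, 11, 13, 6 and 4 of 14 omissions (highest adjusted p = 0.124), and Cxcl12 and Magel2 passed in all 14. After the GC and length correction Cxcl12 was no longer called (0.31, adjusted p = 0.140), nor were Sema3e, Acyp2 and Tnni1 (adjusted p = 0.0983, 0.0865 and 0.0501).

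The beta-globin genes of red blood cells fell in both genotypes. Hbb-bs had 1371, 1003, 1324 and 739 in the wild-type nSVE libraries and 581, 684, 359 and 406 in wild-type SVE. It had 1406, 867 and 1133 in Vipr2-/- nSVE and 686, 502 and 545 in Vipr2-/- SVE. Each SVE library lay below the nSVE ones of its genotype, and the change was -1.04 ± 0.188 (SE, adjusted p = 0.0148). Hbb-bt, its neighbour on chromosome 7, fell by 1.22 (adjusted p = 0.0293). The pair is nearly identical, so the split of reads between them is uncertain. The alpha-globin genes Hba-a1 (-0.83, adjusted p = 0.193) and Hba-a2 (-0.81, adjusted p = 0.176) did not pass. The blood content of the samples was not measured, and its part in the globin values was not tested.

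Many of the largest rises were of genes with no reads in a whole nSVE group. Of the 181 genes called higher, 26 had a group at 0, and in 25 of them it was the Vipr2-/- nSVE group. Among the 18175 genes tested, 962 were at 0 throughout Vipr2-/- nSVE, against 339 in Vipr2-/- SVE, 154 in wild-type nSVE and 25 in wild-type SVE. In the 25 genes the wild-type change was above 0 for 23, with a median of 2.19, and 3 were called in wild type alone. The median of the 155 other higher genes was 0.61, and that of all 181 was 0.68 also when each group at 0 was given 3 reads over its libraries, the floor used for the folds that follow. The floor covers counting error only. Prss53, a serine protease, had 0, 16.5, 74.0 and 0 in the wild-type nSVE libraries and 131, 95.5, 93.5 and 122 in wild-type SVE. It had 0, 0 and 0 in Vipr2-/- nSVE and 113, 72.2 and 109 in Vipr2-/- SVE. It was at least 82.6-fold higher in Vipr2-/- SVE than in Vipr2-/- nSVE, and its wild-type groups did not overlap. Cyp1b1, a cytochrome P450 of vessel and support cells, had 0, 4.81, 0 and 0 in the wild-type nSVE libraries and 8.79, 10.7, 37.4 and 53.8 in wild-type SVE. It had 0, 0 and 0 in Vipr2-/- nSVE and 71.2, 17.0 and 149 in Vipr2-/- SVE. Its floor gave at least 66.6-fold in Vipr2-/-. Sec31b and Map4k1, a kinase of blood cells, were at 0 in both nSVE groups. Map4k1 was at least 130-fold higher in wild-type SVE (59.3 to 148.7) and was seen in 1 of the 3 Vipr2-/- SVE libraries. Sec31b was at least 45.1-fold higher in wild type and at least 65.6-fold in Vipr2-/-, with 1 of its SVE libraries at 0. Sec31b, Map4k1 and Cyp1b1 reached the read count required for testing only in SVE libraries. For Sec31b and Map4k1 entry to the test thus allowed only a rise, and for Cyp1b1 it favoured a rise. The direction of these genes is therefore not a separate result.

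Further genes were at 0 in Vipr2-/- nSVE, and for Kdr and Gm1848 the genotypes differed. Kdr, the main VEGF receptor of endothelium, had 83.5, 92.8, 55.2 and 121 in the wild-type nSVE libraries and 156, 114, 228 and 114 in wild-type SVE. It had 0, 0 and 0 in Vipr2-/- nSVE and 221, 133 and 213 in Vipr2-/- SVE. It was at least 159-fold higher with SVE in Vipr2-/-, and the genotypes differed (interaction adjusted p = 0.0117). Syk, a kinase of immune receptors (at least 104-fold), Gm1848 (at least 146-fold), Alms1-ps2 (at least 108-fold), Xaf1 (at least 80.2-fold), Pde5a, a cGMP phosphodiesterase (at least 67.0-fold), Tbx3os1 (at least 50.4-fold) and Slc16a3, a lactate exporter (at least 35.2-fold), were also at 0 in Vipr2-/- nSVE. Gm1848 overlapped in wild type (124.5 to 173.2 in nSVE and 103.4 to 220.6 in SVE), and its genotypes differed (interaction adjusted p = 0.00512). The wild-type changes of Syk (0.47), Pde5a (0.095) and Alms1-ps2 (1.34) were not called (adjusted p from 0.801 to 0.995). Those of Xaf1 (2.77), Tbx3os1 (2.10) and Slc16a3 (2.19) were not called either (adjusted p from 0.363 to 0.425). For Syk the interaction had an unadjusted p of 2.45e-05 (adjusted p = 0.0742). Alms1-ps2 is a pseudogene and Tbx3os1 lies antisense to Tbx3, and whether counting used strand is not given in the sources used here. Genes with reads in all groups included Flt3l, a growth factor of dendritic cells, with 16.4, 33.0, 41.1 and 99.6 in the wild-type nSVE libraries and 307, 146, 192 and 326 in wild-type SVE. It had 21.8, 3.06 and 1.68 in Vipr2-/- nSVE and 60.9, 191 and 150.1 in Vipr2-/- SVE. Both genotypes' groups were apart, and the rise was 3.41 ± 0.601 (SE, adjusted p = 0.0130). Dok3, an adaptor of immune receptors (2.75, adjusted p = 0.0306), Adam8, a membrane protease of leukocytes (2.41, adjusted p = 0.0373), and Pnpla3, a lipase (4.07, adjusted p = 0.0471), rose as well. Wild-type Pnpla3 had means of 32.95 in nSVE and 89.11 in SVE but a log2 change of 3.37, which libraries at or near 0 enlarge. Without both Vipr2-/- libraries that had the most genes at 0, number 3 of each group, 576 genes were called in place of 264, with 207 in both sets. With the share of genes at 0 as a covariate 57 were called. In single-library omissions Kdr, Syk, Gm1848, Prss53, Cyp1b1 and Flt3l passed in all 14, Pde5a in 12 (adjusted p up to 0.0593 without wild-type SVE library 1 or 4), Tbx3os1 in 10 and Xaf1 in 9. Slc16a3 lost its call in 6, Sec31b and Dok3 in 7, Map4k1 in 8, Adam8 in 11 and Alms1-ps2 and Pnpla3 in 12 (highest adjusted p = 0.108).

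The 6 called genes whose changes had opposite signs in the 2 genotypes fall outside the shared change as defined by sign. In each of them the change of 1 genotype was not called (adjusted p from 0.677 to 0.997), so its sign is uncertain. Tmem51 rose in wild type (629.0 to 709.2 in nSVE against 1737 to 1944 in SVE) and stood at 1390, 962 and 1044 in Vipr2-/- nSVE and 827, 1143 and 1054 in Vipr2-/- SVE, with an interaction of -1.61 (adjusted p = 0.0117). Slc2a13, a myo-inositol transporter, fell in wild type (4196 to 5075 against 2267 to 2940) with -0.79 in wild type and 0.044 in Vipr2-/- on the log2 scale. Carnmt1, Perp, Gjc1 and Gm47113 were at or near 0 in Vipr2-/- nSVE, at most 3.06, and between 17.2 and 330.5 in Vipr2-/- SVE, with wild-type changes of -0.66, -0.34, -0.60 and -0.065. For Slc2a13, Carnmt1, Perp, Gjc1 and Gm47113 the difference between the genotypes did not pass (interaction adjusted p from 0.0543 to 0.276).

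Structural small RNAs had the highest median slope on rRNA share of the 38 lists. Of 9 measured members, Rn7sk was called lower, 9 were below 0 and the median change was -1.24. With rRNA share as a covariate the median was -0.20 with 5 below 0, and the median slope within groups was 0.72 on the log2 scale per doubling of rRNA share. Rn7sk (chromosome 9, 78175303 to 78175633) had 6192, 6206, 4255 and 2067 in the wild-type nSVE libraries and 422, 2713, 1203 and 704 in wild-type SVE. It had 2994, 2600 and 874 in Vipr2-/- nSVE and 551, 737 and 621 in Vipr2-/- SVE. The highest library of each wild-type group was the one with the most rRNA. In Vipr2-/- nSVE the highest was library 1, at 11.42% rRNA, and not library 2, at 19.35%, and in Vipr2-/- SVE the order was the reverse of that of rRNA share. SVE and nSVE overlapped in wild type and not in Vipr2-/-, and the change of -1.85 ± 0.381 (SE, adjusted p = 0.0285) was -0.59 (unadjusted p = 0.00808) at equal rRNA share. For the other 4 genes that rose with rRNA share, the SVE change at equal share was 0.0040 for CT010467.1, -0.18 for Lars2, -0.13 for Gm24447 and 0.092 for Gm23935, against averaged changes of -1.87, -1.71, -1.38 and -1.71 without the covariate. CT010467.1 makes up nearly all of the rRNA share, so its value at equal share was fixed in advance. The ribosomal protein and long noncoding RNA lists had median slopes of -0.0039 and -0.035. Single called genes had slopes away from 0 as well. The slope was -0.23 for Snhg11 (unadjusted p = 0.00503), -0.16 for Miat (unadjusted p = 0.0281), -0.13 for Meg3 (unadjusted p = 0.0385) and -0.25 for Akap8l (unadjusted p = 0.000717), and none of these passed over all genes (adjusted p from 0.931 to 0.957). Of the 181 genes called higher 127 had a slope opposite in sign to their change, that is, more reads in libraries with less rRNA. Of the 83 genes called lower 41 had an opposite slope, that is, fewer reads in libraries with less rRNA. No such count was made over all genes tested, whose median slope was 0.013. The part of rRNA share in the changes of the called genes was not tested beyond the comparison at equal share.

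**Figure D5:**
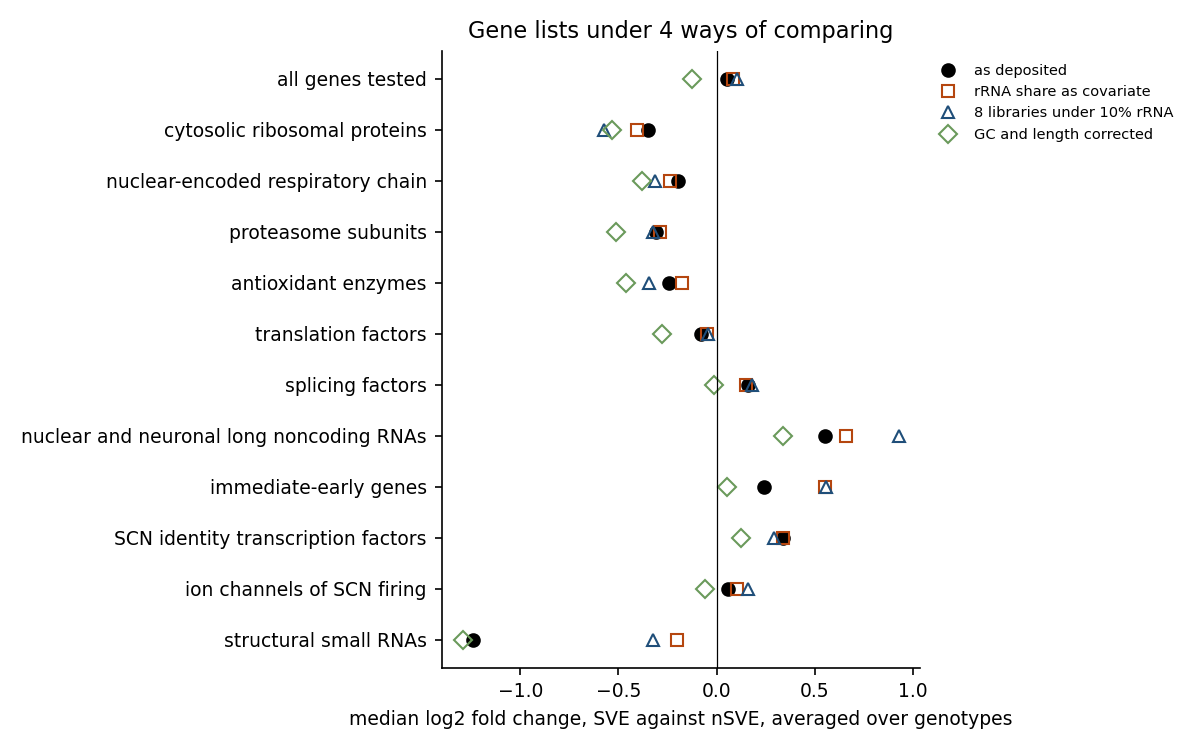
Median averaged log2 fold change of 11 gene lists and of all genes tested, as deposited (filled circles), with rRNA share as covariate (squares), in the 8 libraries under 10% rRNA (triangles) and after GC and length correction (diamonds). Structural small RNAs move from -1.24 to -0.20 with the covariate, ribosomal proteins stay between -0.35 and -0.57, and splicing factors and ion channels fall below 0 after the GC and length correction.

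The GC content and length of the transcripts of the called genes are given as a description, with no test. The median GC content of their longest annotated transcripts was 55.6% for the 181 higher genes and 48.7% for the 83 lower genes, against 49.9% for all genes with a value (18152 of 18175). The median length was 3932 bases for higher, 2007 for lower and 3026 for all genes. Of the 4538 genes with the highest GC content 108 were called higher and 11 lower, and of the 4538 with the lowest 12 and 23. Across genes GC content had a Spearman correlation of 0.30 with the wild-type change and of -0.13 with the Vipr2-/- change, so the signs differed between the genotypes. After correction of each library for GC content and length, 76 genes were called (0.419%), 28 higher and 48 lower (0.264%), so that 36.8% were higher in place of 68.6%, and 56 of the 76 were among the 264. The sequence composition of a library and its part in the calls were not separated further.

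The remaining lists held no call. In 24 of 38 lists, with 378 measured genes, limma called none, with 75 genes at an unadjusted p under 0.05 (29 higher and 46 lower). Of all 18175 genes tested, 2734 had such a p (1671 higher and 1063 lower). In the 24 lists edgeR called 0 of the 378 genes, against 236 of all 18175 genes, and DESeq2 19, against 919 of 17353. Heat shock proteins (median 0.12), GABA genes (0.066), glutamate receptors (0.10), synaptic release genes (0.036), cAMP signalling (0.037), glycolysis (-0.047), glucocorticoid targets (-0.17) and neurotrophins with other exercise-linked factors (0.036) were among these lists. Bdnf, the growth factor most often tied to exercise, was at 0 to 136.2 normalized counts and was not called (0.036, adjusted p = 0.991).

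Marker lists of 9 cell types held 2 calls. Neuron, astrocyte, oligodendrocyte, microglia, mural, ependymal and neighbouring hypothalamic neuron markers had no call with limma. DESeq2 called 1 of the astrocyte markers higher and 1 of the ependymal and choroid plexus markers lower, and limma with array weights 1 of the latter higher. Over all genes DESeq2 called 574 of 17353 higher and 345 lower, and limma with array weights 119 of 18175 higher. Without Vipr2-/- SVE library 1, 2 of the oligodendrocyte markers were called lower, and the other omissions and the 8 libraries under 10% rRNA gave at most 1 call in each of these lists. Of 8 oligodendrocyte precursor markers, Pdgfra, the growth factor receptor that defines these cells, was lower (-0.68, adjusted p = 0.0359), and of 10 endothelial markers Kdr was higher. Over all genes 0.457% were lower and 0.996% higher. The other members did not follow as a set: 4 of the 8 precursor markers were above 0 (median 0.0064) and 4 of the 10 endothelial markers below 0 (median 0.075). The endothelial sum was 4284 to 5386 in wild-type nSVE and 3916 to 4575 in wild-type SVE. In Vipr2-/- it was 3844 to 4832 and 4219 to 5024. Pdgfra stood at 914, 896, 719 and 889 in the wild-type nSVE libraries and 579, 514, 666 and 642 in wild-type SVE. It had 964, 876 and 817 in Vipr2-/- nSVE and 631, 556 and 338 in Vipr2-/- SVE. Its groups were apart in both genotypes, and the call ended in 9 of 14 omissions (highest adjusted p = 0.0829). The summed level of the oligodendrocyte markers was 80344 to 107708 in wild-type nSVE and 51320 to 76178 in wild-type SVE, without overlap, and 69220 to 81040 and 62560 to 99497 in Vipr2-/-. That of the astrocyte markers was 139814 to 160038 in wild-type nSVE and 151451 to 166905 in wild-type SVE, and 161109 to 182679 and 174385 to 177650 in Vipr2-/-. Of the 9 measured markers of neighbouring hypothalamic neurons, 6 were at 0 in some library, and their sum ranged from 4588 to 10918. The part of tissue composition in the shared changes was not tested.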

How the data were processed

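Total RNA of laser-cut SCN was sequenced as paired ends in 14 libraries; groups come from the sample titles. The submitters' processing notes list Trimmomatic (read trimming), FastQC, HISAT2 (alignment), StringTie (counting) and DESeq2, without versions. Those notes name GRCm39 and the series text GRCm38; of 55401 gene IDs in the table, 54349 are in GENCODE M21, with the same GRCm38 coordinates. The deposited signal of each gene was made by the authors by dividing counts by 1 size factor per library. All values (100%) were whole reads, within 0.001 reads, once divided by the value of 1 read, which gave the read totals.

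The test took genes that reached a value of 10 in 3 or more libraries, on log2(value + 1). The added 1 shrinks the fold changes of low genes. Changes are differences of mean log2 values, so a single library at 0 can make them larger than the ratio of group means. In wild type Alms1-ps2 had means of 96.4 in nSVE and 96.2 in SVE but a log2 change of 1.34. limma 3.58.1 (R 4.3.3) with a mean-variance trend was fitted with 1 mean per group, and adjusted p-values are its moderated tests with Benjamini-Hochberg adjustment over all 18175 genes; unadjusted p-values come from the same fits. "Called" means an adjusted p under 0.05. The rRNA share is the percentage of reads in genes annotated as rRNA, tested by an exact permutation test within genotype (SciPy 1.17.1).

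The members, the 38 gene lists and the rule for named genes were chosen with earlier results of these data known. The rule names Vipr2; among called genes of like sign that have an official symbol and reach a mean of 50 in some group, the 15 that rose most and the 15 that fell most; the 5 called genes with the smallest interaction p; up to 4 members of each list with the smallest p; and Per1, Per2, Arntl, Nr1d1, Dbp, Vip, Avp, Prok2, Fos and Bdnf. Nppc, Akap8l, Leng8, Magel2, Rpl19, Rpl26, the other called ribosomal protein genes that are named, Cox7b, Perp, Slc2a13, Gjc1, Gm47113, CT010467.1, Lars2, Gm24447, Gm23935, Cxcl12, Adam8, Hba-a1 and Hba-a2 were named after their values were seen. Not every gene the rule selects is described, and some results are not reported here.

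Alternatives were other pseudocounts, filters and scalings, array weights, the replicate block, edgeR 4.0.16 and DESeq2 1.42.0 on the recovered reads, covariates and the omission of each library. The GC and length correction, the 8 libraries under 10% rRNA and the omission of library 3 from both Vipr2-/- groups were chosen after seeing the data. In simulated data with 50 genes changed at each size, the averaged test found 18%, 42%, 54% and 64% of changes of 1.5-fold, 2-fold, 4-fold and 8-fold, with 7 false calls. With the rRNA covariate it found 8%, 32%, 54% and 62%, with 3 false calls. Apart from the changed genes, simulated means were equal in all groups, genes were drawn independently and none followed rRNA share. The simulation therefore cannot show what the covariate costs in the measured libraries. Promoter sequences are those of RefSeq.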

Additional observations from a re-analysis of the deposited data

Results flagged for a closer look

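Tests of a difference between the genotypes passed for 4 genes, so the averaged value of these genes hides unlike changes. The Vipr2-/- change minus the wild-type change was 6.749 for Kdr, 7.395 for Gm1848, -1.606 for Tmem51 and -1.729 for Nr1d1 on the log2 scale.

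In 15 of 182 wild-type groups of 4 libraries, 1 library stood apart from the other 3 by Dixon's test at its 0.829 limit, which chance passes in about 1 of 20 groups. In wild-type nSVE the lone high libraries were number 2 for Fos (8106), Per1 (4266) and Cyp1b1 (4.812), number 3 for Avp (14960), number 4 for Pnpla3 (118.5) and number 1 for Prdx2 (10650). The lone low libraries were number 1 for Atp5md (1279), Lhx1 (2086) and Alms1-ps2 (0), and number 3 for Pdgfra (718.7). In wild-type SVE the lone high libraries were number 2 for Rps14 (3445) and Rpl19 (10920), number 3 for Arntl (1734), and number 4 for Prok2 (763.0) and Magel2 (13280).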

How the results depend on the processing

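Under the alternatives run, the 71 named genes that were called kept their sign throughout. Being called in these same data favours a kept sign. The averaged count of 264 moved to 138 without a filter, 161 with array weights, 919 with DESeq2, 57 with the zero share (of genes at 0 in a library) as covariate, 0 with log2 rRNA share as covariate, 76 after the GC and length correction, 1055 in the 8 libraries under 10% rRNA and 576 without library 3 of both Vipr2-/- groups. The wild-type count of 233 moved, in the same order from array weights on, to 1693, 727, 75, 3, 7, 5 and 739. The Vipr2-/- count of 21 moved to 5 with a pseudocount of 10, to 6 without a filter, with a filter of 50 and with edgeR, and, in that order from array weights on, to 4, 394, 8, 3, 13, 2045 and 39. The interaction count of 4 moved to 175 with DESeq2, 7 with the zero share as covariate, 2 after the GC and length correction, 684 in the 8 libraries and 13 without library 3 of both Vipr2-/- groups; with edgeR and with a pseudocount of 0.5 it was 6. With rRNA share in percent, 6 genes were called at equal share in place of 0 and 3 followed the share in place of 5. The replicate number as a block gave 108 averaged calls, 137 in wild type, 4 in Vipr2-/- and 0 for the interaction (1706 genes at an unadjusted p under 0.05), and 0 at equal rRNA share. Same-numbered libraries showed little shared deviation (19 pairs, r from -0.0536 to 0.117, with 7 of 14 libraries closest to their own number). The numbers were therefore not treated as pairs, although this check cannot exclude that they mark a batch.

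When each library was left out in turn, the averaged count ranged from 63 (without wild-type SVE library 4) to 446 (without Vipr2-/- nSVE library 1), the wild-type count from 29 to 429, the Vipr2-/- count from 6 to 177, the interaction from 1 to 36, the calls at equal rRNA share from 0 to 9 and the genes following the share from 4 to 7. The rRNA difference ranged from -2.06 to -1.47 log2 units, and in percent it was -9.08 points (exact permutation p = 0.0157). All 14 omissions kept the call for 31 of the 71.

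Signs reversed for 5 genes that were not called. Bdnf was -0.127 with array weights, -1.88 with the zero share as covariate, -0.0261 without an interaction term and -0.138 after the GC and length correction (-0.843 to 1.03 over omissions). Arntl was -0.00766 with DESeq2, -0.119 with rRNA share as covariate, -0.00377 without an interaction term, -0.157 after the GC and length correction and -0.233 in the 8 libraries (-0.0819 to 0.151 over omissions). Vipr2 was -0.0873, -0.112 and -0.0151 with the rRNA covariate, after the GC and length correction and in the 8 libraries (-0.0601 to 0.293 over omissions). Dbp was -0.0642 after the GC and length correction, and CT010467.1 was 0.004 with the rRNA covariate. Reads of CT010467.1 make up nearly all of that covariate, so its value there was fixed in advance. The cause of the other shifts was not tested. Depth limits most the genes with few reads, whose groups at 0 allow up to 3 reads over the group.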
